A study of Mus musculus with 12 samples.

Results

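Chemokines and chemokine receptors were examined in 12 RNA-seq libraries of mouse gastrocnemius, a hindlimb muscle, from mice that carry a conditional transgene for DUX4, the transcription factor misexpressed in facioscapulohumeral muscular dystrophy (FSHD). The members were chosen by symbol alone, as every gene named Ccl, Cxcl, Ccr or Cxcr with a number, plus Cx3cl1 and Cx3cr1. This gave 56 of the 37748 genes in the table, 38 for ligands and 18 for receptors. Control mice were ACTA1-MCM/+, which carry a tamoxifen-inducible Cre driven by a skeletal muscle actin promoter, and FLExD/+ mice carried the DUX4 transgene, FLExDUX4, at the Rosa26 locus without Cre. Neither of these groups received tamoxifen (TMX). The moderate and severe models were bi-transgenic FLExDUX4/+;MCM/+ mice, given 1 injection of 5 mg/kg TMX or 2 injections of 10 mg/kg TMX on consecutive days. All mice were 13 weeks old, each group held 3 mice, and the model muscles were taken 9 days after TMX. Cre acts in a mosaic of muscle fibers in these models, and because no TMX-injected control library was analysed here, TMX and DUX4 induction cannot be told apart. The labels call the FLExD/+ mice mild in pathology and name the 5 mg/kg dose mild in 1 place and moderate in another, whereas the mild model of the study is a bi-transgenic group without TMX that was not analysed here.

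Chemokines are small secreted proteins that attract leukocytes along a concentration gradient by binding G protein-coupled receptors on those cells. CC ligands mostly bind CCR receptors and CXC ligands CXCR receptors, a ligand can bind several receptors, and Ccr2 with its ligands is known for bringing blood monocytes into injured muscle. Another group, including Cxcl12 and Ccl21, is made in resting tissue by stromal and vascular cells and positions cells there.

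Library totals were 23796902 to 29136403 expected counts, at which 3 counts in 1 library are worth 0.0681 to 0.154 counts per 1000000 (CPM) on library sizes scaled with trimmed mean of M-values (TMM) factors. Wfdc3, a mouse target of DUX4 used to check the labels, averaged 0.23 CPM in control, 0.21 CPM in FLExD/+, 76.6 CPM in moderate and 87.9 CPM in severe muscle. All 6 muscle fiber genes on a marker list (Acta1, Ckm, Ttn, Tnnt3, Myh4 and Pvalb) were present in every group, with summed levels of 200110 to 283244 CPM in control and 23094 to 36077 CPM in severe libraries. The TMM factors were 0.710 to 0.766 in control and FLExD/+, 1.06 to 1.13 in moderate and 1.69 to 1.85 in severe libraries. With library size alone in place of these factors, the median log2 fold change over all 18502 genes tested moved from 0.05 to 0.65 in moderate and from 0.10 to 1.39 in severe muscle against control, so changes are given relative to TMM, and called genes whose direction depends on it are named as such. In bulk muscle, fewer cells of a type and less RNA per cell cannot be told apart.

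Promoters are shown for 5 members that rose in both models and together show the range of motif content found, from none to several. They were read from RefSeq on GRCm38.p6, from 250 bases before to 50 bases after the start site, 5′ to 3′ in the direction of the gene. A promoter entry was found for 39 of the 56 genes. Capitals mark matches, on either strand, to the NF-kB site, the interferon-stimulated response element, the gamma-activated site (TTCNNNGAA) or the DUX4 motif, and overlapping matches are joined. Ccl8 lies at chr11:82114935-82115234 on the plus strand, Ccl9 at chr11:83578587-83578886 on the minus strand, Cxcl10 at chr5:92348840-92349139 on the minus strand, Cxcl14 at chr13:56296502-56296801 on the minus strand and Ccr1 at chr9:123968643-123968942 on the minus strand.
Ccl8: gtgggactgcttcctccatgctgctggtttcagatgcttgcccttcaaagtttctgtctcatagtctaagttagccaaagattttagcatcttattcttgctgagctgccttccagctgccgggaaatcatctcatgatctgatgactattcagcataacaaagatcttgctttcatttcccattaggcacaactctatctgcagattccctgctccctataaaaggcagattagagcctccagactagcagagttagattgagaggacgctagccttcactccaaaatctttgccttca
Ccl9: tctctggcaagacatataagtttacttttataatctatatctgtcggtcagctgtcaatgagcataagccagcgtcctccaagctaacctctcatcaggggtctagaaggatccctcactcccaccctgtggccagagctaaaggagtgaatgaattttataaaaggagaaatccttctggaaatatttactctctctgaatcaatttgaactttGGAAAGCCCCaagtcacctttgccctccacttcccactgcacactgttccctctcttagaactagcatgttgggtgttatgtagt
Cxcl10: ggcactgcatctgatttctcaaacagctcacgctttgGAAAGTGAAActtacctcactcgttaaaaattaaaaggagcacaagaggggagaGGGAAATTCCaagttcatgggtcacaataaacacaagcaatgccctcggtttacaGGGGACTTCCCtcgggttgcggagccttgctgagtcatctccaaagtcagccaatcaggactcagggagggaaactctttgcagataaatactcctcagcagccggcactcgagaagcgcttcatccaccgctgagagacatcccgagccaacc
Cxcl14: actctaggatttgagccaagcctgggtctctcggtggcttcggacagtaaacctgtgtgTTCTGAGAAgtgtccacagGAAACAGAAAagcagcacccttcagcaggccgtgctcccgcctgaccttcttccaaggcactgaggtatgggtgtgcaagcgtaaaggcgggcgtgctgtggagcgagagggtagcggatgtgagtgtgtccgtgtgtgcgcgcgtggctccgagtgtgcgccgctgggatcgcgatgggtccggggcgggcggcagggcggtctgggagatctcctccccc
Ccr1: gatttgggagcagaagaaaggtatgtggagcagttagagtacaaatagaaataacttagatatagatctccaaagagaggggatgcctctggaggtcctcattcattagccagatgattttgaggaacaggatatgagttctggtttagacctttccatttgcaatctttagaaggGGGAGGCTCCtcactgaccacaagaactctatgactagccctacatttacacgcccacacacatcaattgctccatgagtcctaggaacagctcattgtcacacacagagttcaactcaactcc
An NF-kB site was present in 11 of the 39 genes, among them Cxcl1, Cxcl2, Cxcl3 and Cxcl10. Per promoter, this was 23.9% of the 46 promoters of these genes and 8.46% of all 32851 promoters in the table. The interferon-stimulated response element was found in Ccl19, Cxcl10 and Cxcl14, or 6.52% of the 46 promoters, against 3.44% of all promoters. The gamma-activated site was found in Ccl17, Ccr6 and Cxcl14, or 6.52%, against 8.30%. No DUX4 motif was found in these windows for the 39 genes, and 0.161% of all promoters held one. The Ccl8 window holds none of these letters.

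Members were tested where at least 3 of the 12 columns held 5 counts or more, which 40 of the 56 did. A gene was called higher or lower where its adjusted p was under 0.05 and its log2 fold change reached 0.5 in size. In moderate muscle 27 members were higher than control, where 23% of all genes tested were higher, and 2 were lower, where 15.1% were lower. In severe muscle 26 were higher, beside 31.3% of all genes, and 5 were lower, beside 25.9%. The severe model exceeded the moderate one for 13 members, beside 16.2% of all genes, and was below it for 7, beside 17.3%. Between FLExD/+ and control the edgeR test called 0 of the 40 members higher, beside 0% of all genes, and 0 lower, beside 0.0054%.

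Of the 40 tested members, 12 passed the filter only through the models, since no control or FLExD/+ library held 5 counts of them. These were Ccl3, Ccl4, Ccl5, Ccl12, Ccl22, Cxcl1, Cxcl2, Cxcl10, Cxcl13, Ccr3, Ccr7 and Cxcr3. A higher level in the models is what let them pass. Their folds, p-values and calls against control below are therefore values only, and no support for a rise. Among the other 28, the counts were 17 higher and 2 lower in moderate, and 15 higher and 5 lower in severe muscle. The median log2 fold change of the tested members was 1.98 in moderate and 2.52 in severe muscle, beside 0.05 and 0.10 over all genes, and the median of the 28 was 0.97 and 1.38. With the 3 members at 0 counts in control set at their lower bound, the medians were 1.68 and 2.52. The split between higher and lower calls depended on scaling: with library size alone 34 members were higher and 0 lower in severe muscle, and with limma on log2(TPM + 1) 31 and 0. In moderate muscle library size alone gave 32 higher and 0 lower, and limma 26 and 0. Between severe and moderate muscle, library size alone gave 21 higher and 1 lower, and limma 22 and 1, the lower gene being Ccl11 in both. With TMM, the 7 lower calls between the models became 4 without moderate mouse 1236 or moderate mouse 1308, and the 2 lower calls in moderate muscle became 1 without control mouse 1349 or moderate mouse 1236 or 1331.

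Within a library, the share of each group of genes in the counts of all 56 does not depend on library scaling. Ligands of CCR2, the main monocyte receptor, made up 0.429% to 0.704% of these counts in control, 0.557% to 0.911% in FLExD/+, 5.14% to 7.77% in moderate and 7.53% to 7.94% in severe libraries. The myeloid and T cell attractants Ccl3, Ccl4, Ccl5, Ccl6 and Ccl9 together took 5.19% to 6.32% in control and 19.3% to 22.2% in moderate libraries. Receptor genes took 18.9% to 21.8% in control and 30.8% to 31.6% in severe libraries. Cxcl12 went the other way, from between 29.8% and 33.2% of the counts in control to between 9.13% and 15.4% in moderate and between 5.78% and 6.98% in severe libraries. Its own counts were 765 to 1041 in control, 795 to 1129 in moderate and 894 to 1239 in severe libraries. The total of the 56 genes was 2566 to 3134 in control and 15454 to 17742 in severe libraries. These are counts without scaling, and a share alone cannot separate a fall of Cxcl12 from a rise of other members. None of these shares overlapped control in the model libraries named.

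**Figure D1:**
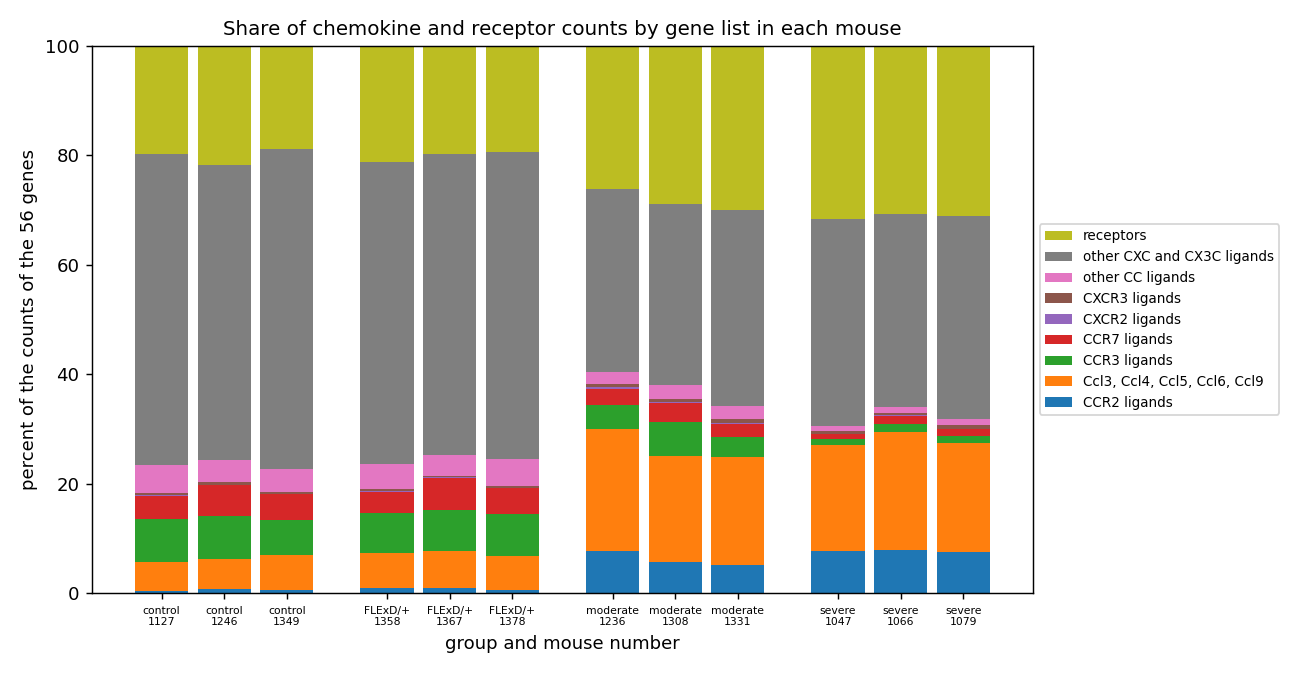
Share of the counts of the 56 chemokine and receptor genes taken by each gene list, in percent, for each of the 12 mice (1 bar per mouse, mouse number under the bar). The blue segment (CCR2 ligands) and the orange segment (Ccl3, Ccl4, Ccl5, Ccl6 and Ccl9) are wider in every moderate and severe mouse than in any control or FLExD/+ mouse, and the grey segment, which holds Cxcl12 and Cxcl14, narrows from between 53.8% and 58.3% in control to between 32.9% and 37.8% in the models.

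Ordered by TPM, a level scaled within each library that accounts for transcript length, the most abundant members in control were Cxcl14 (23.6 ± 2.48 TPM, SD, n = 3), Ccl11 (14.4 ± 1.15 TPM), Cxcl12 (11.9 ± 0.976 TPM) and Ccl27a (8.96 ± 0.632 TPM). These neighbours did not overlap in their ranges down to Ccl27a, which overlapped Cxcr7 at 7.86 ± 1.71 TPM. In FLExD/+ muscle the order of these 5 was the same, with Ccl11 and Cxcl12 overlapping. Moderate muscle was led by Ccl6 (60.4 ± 13.3 TPM) and Cxcl14 (55.4 ± 11.2 TPM), which overlapped, followed by Ccl8 (27.0 ± 9.37 TPM). Severe muscle was led by Cxcl14 (159 ± 20.8 TPM) and Ccl6 (128 ± 21.7 TPM), again overlapping, and then by Ccl8 (86.6 ± 7.33 TPM) and Ccl9 (60.7 ± 10.2 TPM), each apart from its neighbours. The highest receptor in control and moderate muscle was Cxcr7 at 7.86 and 15.6 TPM, and in severe muscle Cxcr4 at 29.0 TPM, which overlapped Ccr2 at 25.04 TPM.

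All 4 ligands of CCR2 were called higher in both models, beside 23% of all genes tested in moderate and 31.3% in severe muscle. Of these, Ccl12 passed the filter only through the models. Values are CPM for the mice in the order of their numbers, which are 1127, 1246 and 1349 in control, 1358, 1367 and 1378 in FLExD/+, 1236, 1308 and 1331 in moderate and 1047, 1066 and 1079 in severe muscle. Ccl2, the classical monocyte attractant, measured 0.154, 0.623 and 0.0947 in control, 0.832, 0.691 and 0.239 in FLExD/+, 5.66, 4.43 and 3.15 in moderate and 6.67, 7.08 and 4.66 in severe. Every model mouse was above every control and FLExD/+ mouse, and the models overlapped each other. The log2 fold change of Ccl2 was 3.90 ± 0.48 in moderate (SE, adjusted p = 1.52e-05) and 4.37 ± 0.46 in severe muscle (adjusted p = 1.65e-06), or 14.9-fold and 20.7-fold. Ccl8, a CCR2 ligand that in mice also acts on CCR8, measured 0.257, 0.0959 and 0.805 in control, 0.245, 0.346 and 0.430 in FLExD/+, 14.4, 7.20 and 8.55 in moderate and 19.7, 19.1 and 19.4 in severe. The moderate and severe mice did not overlap, and the severe mice lay close together. Ccl8 rose by 4.67 ± 0.41 in moderate (adjusted p = 1.40e-06) and 5.62 ± 0.40 in severe muscle (adjusted p = 6.39e-08), and severe exceeded moderate by 0.95 ± 0.26 (adjusted p = 0.00944).

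Ccl7 and Ccl12, the other two CCR2 ligands, were near the detection limit in control. Ccl7 rose by 4.01 ± 0.61 on the log2 scale in moderate (adjusted p = 9.18e-05) and 4.39 ± 0.59 in severe muscle (adjusted p = 1.49e-05), with a difference between the models of 0.38 ± 0.37 that was not called. Ccl12 measured 0, 0 and 0 in control, 0.0490, 0 and 0.0478 in FLExD/+, 1.11, 0.381 and 0.590 in moderate and 1.998, 2.62 and 1.60 in severe. With 0 counts in the 3 control libraries, its change is given against 3 counts over the group, as at least 14.4-fold higher in moderate and at least 42.5-fold higher in severe muscle. Severe exceeded moderate for Ccl12 by 1.56 ± 0.35 (adjusted p = 0.00283) without overlap. The 4 genes and Ccl11 lie side by side on chromosome 11 (GRCm38), from the start of Ccl2 at 82035571 to the end of Ccl8 at 82116799.

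Among Ccl3, Ccl4, Ccl5, Ccl6 and Ccl9, the genes Ccl6 and Ccl9 carried nearly all of the counts. Ccl6, a CCR1 ligand of myeloid cells, measured 2.63, 3.88 and 4.21 in control, 4.26, 4.74 and 3.68 in FLExD/+, 37.9, 26 and 25.01 in moderate and 34.2, 42.9 and 36.9 in severe. All model mice stood above all mice without TMX, and severe overlapped moderate. Ccl6 changed on the log2 scale by 3.05 ± 0.20 in moderate (adjusted p = 3.65e-08) and 3.40 ± 0.20 in severe muscle (adjusted p = 2.89e-09), and the difference of 0.36 ± 0.16 between the models (adjusted p = 0.0888) was not called, but passed without moderate mouse 1236 (0.57), with library size alone (1.05) and with limma on TPM (1.08). Ccl9, another CCR1 ligand made by macrophages, measured 4.22, 4.03 and 5.11 in control, 5.24, 5.43 and 4.97 in FLExD/+, 31.8, 22.6 and 27.0 in moderate and 42.2, 44.4 and 36.4 in severe. The 3 steps did not overlap. Ccl9 rose by 2.61 ± 0.14 in moderate (adjusted p = 3.60e-09) and 3.20 ± 0.14 in severe muscle (adjusted p = 9.57e-11), and the rise of 0.60 ± 0.12 from moderate to severe (adjusted p = 0.000862) fell to 0.48, under the fold threshold, without moderate mouse 1308.

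Ccl3, Ccl4 and Ccl5, which attract monocytes and T cells, stayed under 1 CPM in every library and passed the filter only through the models. Ccl3 was at 0 counts in control and at least 4.95-fold higher in moderate and 13.8-fold higher in severe muscle, where it exceeded moderate by 1.46 ± 0.43 (adjusted p = 0.0137, and 0.0523 without moderate mouse 1308 or 0.0546 without moderate mouse 1331). Ccl4 had 0 counts in control and 4 in the moderate libraries, and was called only in severe muscle, at 47 counts and at least 7.54-fold higher. Severe exceeded moderate for Ccl4 by 2.95 ± 0.56 (adjusted p = 0.00147) with no overlap. Ccl5 had 1 count in control against 19 in moderate and 36 in severe libraries, a ratio of normalised counts of 12.8 (95% interval 2.04 to 533) and 17.3 (95% interval 2.92 to 703) with exact intervals that cover counting error only. Its moderate call (adjusted p = 0.0257) was lost without control mouse 1127 or 1246 or moderate mouse 1236 or 1331, at adjusted p from 0.0538 to 0.102.

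**Figure D2:**
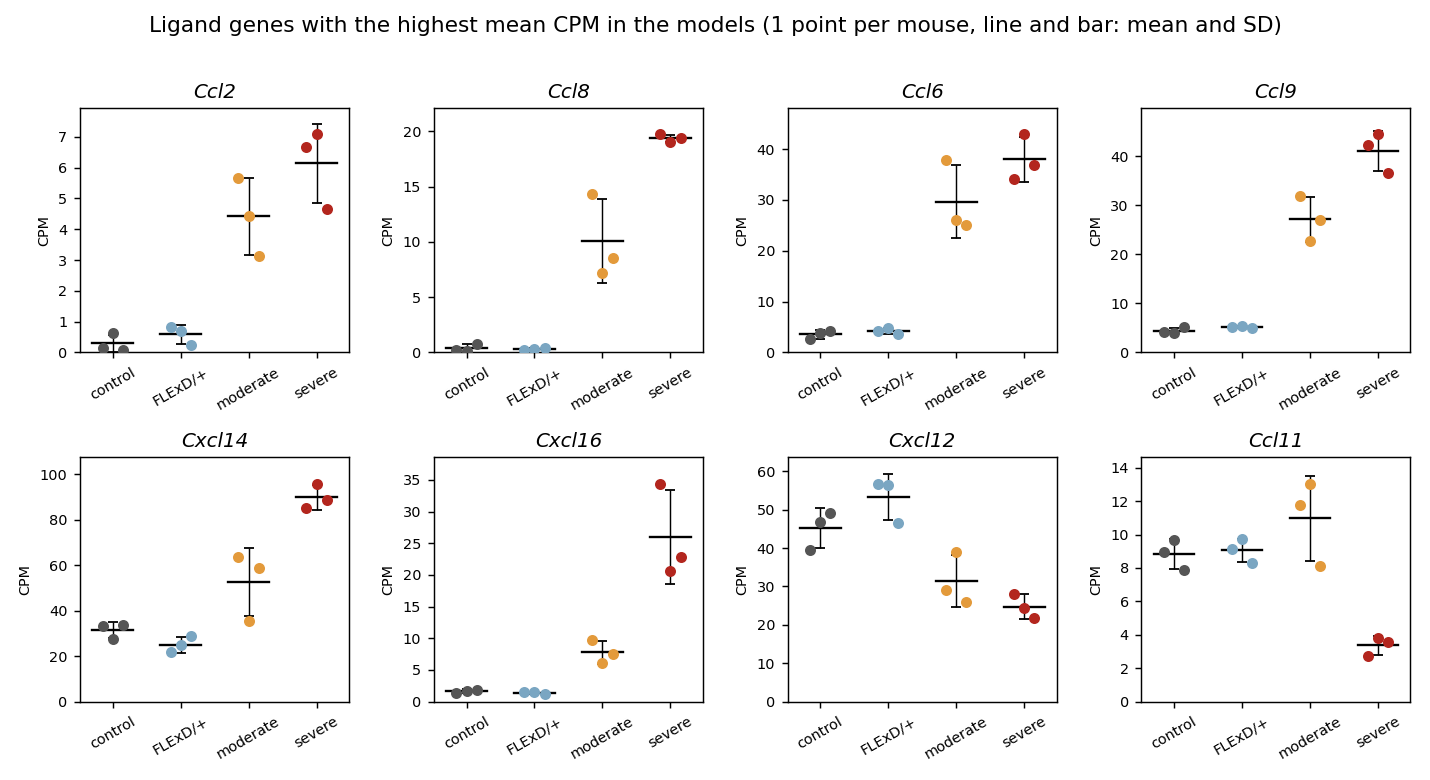
CPM of 8 ligand genes in each mouse of the 4 groups (points), with the group mean (line) and SD (bar), on axes that start at 0. Ccl2, Ccl8, Ccl6, Ccl9 and Cxcl16 are low in control and FLExD/+ and higher in the models, Cxcl12 is lower in both models on this TMM scale but not with library size alone, and Ccl11 falls in severe muscle to between 2.72 and 3.77 CPM.

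Of the 6 remaining CXC and CX3C ligands 5 were tested, and with TMM scaling 4 were higher and 1, Cxcl12, lower in both models. Over all genes tested, 23% were higher and 15.1% lower in moderate, and 31.3% and 25.9% in severe muscle. Among the 4, Cxcl13 passed the filter only through the models. Cxcl14, a ligand expressed by epithelia and other non-immune tissue, measured 33.1, 27.5 and 33.8 in control, 21.6, 24.7 and 28.6 in FLExD/+, 63.5, 35.4 and 58.6 in moderate and 85.1, 95.9 and 88.6 in severe. Moderate mouse 1308 was close to control, and the 3 severe mice were above all others. Cxcl14 changed on the log2 scale by 0.74 ± 0.18 in moderate (adjusted p = 0.00419) and 1.51 ± 0.18 in severe muscle (adjusted p = 6.85e-06), and severe exceeded moderate by 0.78 ± 0.18 (adjusted p = 0.00307). Cxcl16, a membrane-anchored ligand of CXCR6 that also serves as a scavenger receptor on macrophages, measured 1.29, 1.73 and 1.85 in control, 1.57, 1.43 and 1.24 in FLExD/+, 9.75, 6.13 and 7.54 in moderate and 34.4, 20.6 and 22.9 in severe. Severe mouse 1047 was the highest, and no group overlapped the next apart from control and FLExD/+. Cxcl16 rose by 2.26 ± 0.25 in moderate (adjusted p = 4.77e-06) and 4.0 ± 0.24 in severe muscle (adjusted p = 4.36e-09), with 1.73 ± 0.20 between them (adjusted p = 1.21e-05). Its exons overlap those of Zmynd15 on the opposite strand, and in all 12 libraries its count was not whole, so part of its reads was shared out between genes.

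Cxcr6, the receptor of Cxcl16, was not called. It measured 0.566, 0.863 and 1.09 in control, 0.783, 0.642 and 1.15 in FLExD/+, 0.475, 1.28 and 0.557 in moderate and 0.840, 0.708 and 0.631 in severe, with all groups overlapping, and its log2 fold change in severe muscle was -0.21 ± 0.38 (adjusted p = 0.638), a direction that turned to 1.07 with library size alone and 0.45 with limma on TPM. Cx3cl1, the membrane-bound ligand of Cx3cr1 made by endothelium and other cells, measured 1.18, 0.815 and 1.56 in control, 1.08, 0.395 and 0.622 in FLExD/+, 3.01, 2.42 and 2.75 in moderate and 3.65, 2.92 and 3.69 in severe. The models were above control without overlap and overlapped each other. Its log2 fold change was 1.2 ± 0.28 in moderate (adjusted p = 0.00216) and 1.52 ± 0.27 in severe muscle (adjusted p = 0.000139). Cxcl13, which attracts B cells, had 1 count in control, 65 in moderate and 195 in severe libraries, and severe exceeded moderate by 1.11 ± 0.40 (adjusted p = 0.0356), a call lost without moderate mouse 1308 or 1331 or severe mouse 1066 or 1079 at adjusted p from 0.0743 to 0.140.

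The interferon-inducible ligands of CXCR3, which attract activated T and NK cells, rose from a low level. Cxcl10, which passed the filter only through the models, measured 0.154, 0.0479 and 0 in control, 0.0979, 0.0494 and 0.0957 in FLExD/+, 0.665, 0.554 and 0.885 in moderate and 1.11, 0.802 and 1.09 in severe. Its log2 fold change was 3.34 ± 0.56 in moderate and 3.85 ± 0.53 in severe muscle, a direction that the filter helped to fix. Cxcl9 rose by 1.23 ± 0.45 in moderate muscle (adjusted p = 0.0351), where moderate mouse 1308 overlapped control and the call was lost without control mouse 1127 or 1349 or moderate mouse 1236 or 1331, at adjusted p from 0.0887 to 0.171. In severe muscle Cxcl9 rose by 1.71 ± 0.43 (adjusted p = 0.00256) without overlap. The exons of Cxcl10 overlap those of Art3 on the opposite strand, and the counting is not stated to use strand.

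Ligands of CXCR2, the receptor of neutrophils, stayed near the detection limit. Cxcl3, Cxcl5 and Cxcl15 did not reach 5 counts in 3 columns, and Cxcl1 and Cxcl2 passed the filter only through the models. Cxcl1 measured 0.0515, 0.0479 and 0 in control, 0.147, 0.148 and 0.0478 in FLExD/+, 0.570, 0.623 and 0.197 in moderate and 0.204, 0.165 and 0.146 in severe. Its ratio of normalised counts against the 2 control counts was 14.2 (95% interval 3.69 to 121) in moderate and 5.29 (95% interval 1.301 to 46.4) in severe muscle. Moderate exceeded severe, with a log2 fold change of -1.40 ± 0.46 (adjusted p = 0.022), moderate mouse 1331 overlapped the severe mice, and the call was lost without moderate mouse 1236 or 1308 or severe mouse 1066 or 1079 at adjusted p from 0.0575 to 0.0942. The severe call against control (adjusted p = 0.0298) was lost without control mouse 1246 or 1349 or severe mouse 1047, at 0.0528 to 0.113. Cxcl2 had 2 counts in control, 8 in moderate and 15 in severe libraries and was not called.

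In severe muscle 5 ligand genes fell against control with TMM scaling, and 2 of them, Cxcl12 and Ccl25, also in moderate muscle. Over all genes tested, 25.9% were lower in severe and 15.1% in moderate muscle. Cxcl12, which holds CXCR4-bearing cells in tissue and is made by stromal and endothelial cells, measured 39.4, 46.9 and 49.3 in control, 56.8, 56.6 and 46.5 in FLExD/+, 29.0, 39.1 and 26.1 in moderate and 28.1, 24.3 and 21.7 in severe. Both models lay below control and FLExD/+ without overlap, although moderate mouse 1308 came close to control mouse 1127. The log2 fold change of Cxcl12 was -0.53 ± 0.15 in moderate (adjusted p = 0.00899) and -0.87 ± 0.15 in severe muscle (adjusted p = 0.000123), but with library size alone it was 0.07 and 0.43 and with limma on TPM 0.08 and 0.79. Against the median gene of the same fit, Cxcl12 in severe muscle stood at -0.97 with TMM, -0.96 with library size alone and 0.09 with limma on TPM. The moderate change missed the fold threshold without control mouse 1349 (-0.49), moderate mouse 1236 (-0.47) or moderate mouse 1331 (-0.44).

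Ccl11 (eotaxin), the CCR3 ligand that attracts eosinophils, measured 8.96, 9.68 and 7.90 in control, 9.11, 9.72 and 8.32 in FLExD/+, 11.7, 13.1 and 8.10 in moderate and 2.72, 3.77 and 3.59 in severe. Severe muscle was below every other library, while moderate overlapped control. Ccl11 differed from control by a log2 fold change of 0.31 ± 0.17 in moderate (adjusted p = 0.145), -1.40 ± 0.18 in severe muscle (adjusted p = 5.12e-06) and -1.70 ± 0.17 from moderate to severe (adjusted p = 3.53e-06). Ccl11 kept its direction in severe muscle under each scaling tried, at -0.11 with library size alone and -0.19 with limma on TPM, neither past the threshold. From moderate to severe the change of Ccl11 passed under each scaling, at -1.02 with library size alone and -0.91 with limma. Ccl24, the other tested CCR3 ligand, measured 1.49, 1.68 and 1.75 in control, 1.62, 1.68 and 2.01 in FLExD/+, 2.63, 3.08 and 1.90 in moderate and 1.45, 2.03 and 1.29 in severe. It rose by 0.62 ± 0.23 in moderate (adjusted p = 0.0386) and was lower in severe than moderate muscle, at -0.67 ± 0.22 (adjusted p = 0.0212), with overlap. That second direction turned to 0.02 with library size alone and 0.06 with limma on TPM, and each of the Ccl24 calls was lost without 1 of several mice (control 1127, 1246 or 1349 and moderate 1236 or 1308 for the rise, at adjusted p from 0.0746 to 0.152, and moderate 1236 or 1308 and severe 1047 or 1079 for the fall, at 0.0571 to 0.103).

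Ccl25, the CCR9 ligand of thymus and gut, measured 1.44, 1.10 and 1.61 in control, 1.37, 1.38 and 1.72 in FLExD/+, 0.506, 0.554 and 0.787 in moderate and 0.431, 0.566 and 0.777 in severe. Both models were below control without overlap. Ccl25 changed on the log2 scale by -1.16 ± 0.29 in moderate (adjusted p = 0.00374) and -1.23 ± 0.28 in severe muscle (adjusted p = 0.00126), and with library size alone -0.57 and 0.05. Its exons overlap those of Elavl1 on the opposite strand, so reads of either gene could be counted for the other. Ccl27a, a CCR10 ligand best known from skin, measured 4.99, 4.46 and 4.26 in control, 4.94, 4.29 and 4.93 in FLExD/+, 5.19, 5.09 and 4.82 in moderate and 2.36, 2.67 and 3.25 in severe. Severe muscle was lower than control, at a log2 fold change of -0.73 ± 0.15 (adjusted p = 0.000488), and lower than moderate, at -0.87 ± 0.14 (adjusted p = 0.00019), without overlap in either. The change against control turned to 0.56 with library size alone and 0.41 with limma on TPM. From moderate to severe the change shrank to -0.18 and -0.12, and the call was lost with both. The exons of Ccl27a overlap those of Il11ra1 on the opposite strand, and in all 12 libraries its count was not whole.

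The CCR7 ligands, which guide dendritic cells and T cells into lymphatic vessels and lymph nodes, moved in different directions. Ccl21a measured 3.71, 5.75 and 5.11 in control, 4.26, 7.16 and 3.97 in FLExD/+, 5.57, 5.09 and 4.39 in moderate and 2.32, 3.02 and 2.60 in severe. Severe muscle was below all control and moderate mice, at a log2 fold change of -0.88 ± 0.22 against control (adjusted p = 0.00291) and -0.92 ± 0.22 against moderate (adjusted p = 0.00301). Against control, Ccl21a turned to 0.41 with library size alone and 0.29 with limma on TPM. From moderate to severe its change shrank to -0.23 and -0.18, and the call was lost with both. Ccl21c, a near copy that is named Ccl21b in the GENCODE M21 annotation, measured 0.206, 0.192 and 0.237 in control, 0.0979, 0.247 and 0.143 in FLExD/+, 0.443, 0.346 and 0.164 in moderate and 0.136, 0.0708 and 0.146 in severe. It was lower in severe than moderate muscle, at -1.40 ± 0.46 (adjusted p = 0.0223), a call lost without moderate mouse 1236 or 1308 or severe mouse 1066, at adjusted p from 0.0572 to 0.117. The gene labelled Ccl21b here, named Gm21541 in that annotation, was not called. Since Ccl21a, Ccl21b and Ccl21c share reads in all 12 libraries, the values of each are uncertain. Ccl19 was higher in moderate muscle by 1.54 ± 0.54 (adjusted p = 0.0286), lost without control mouse 1127, 1246 or 1349 or moderate mouse 1308 at 0.0526 to 0.155, and at 1.25 ± 0.54 in severe muscle (adjusted p = 0.054) it was not called, but passed without severe mouse 1079 (adjusted p = 0.0219), with library size alone (2.52), with limma on TPM (1.04), without a filter on low counts (1.33) and with counts not rounded (1.31).

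**Figure D3:**
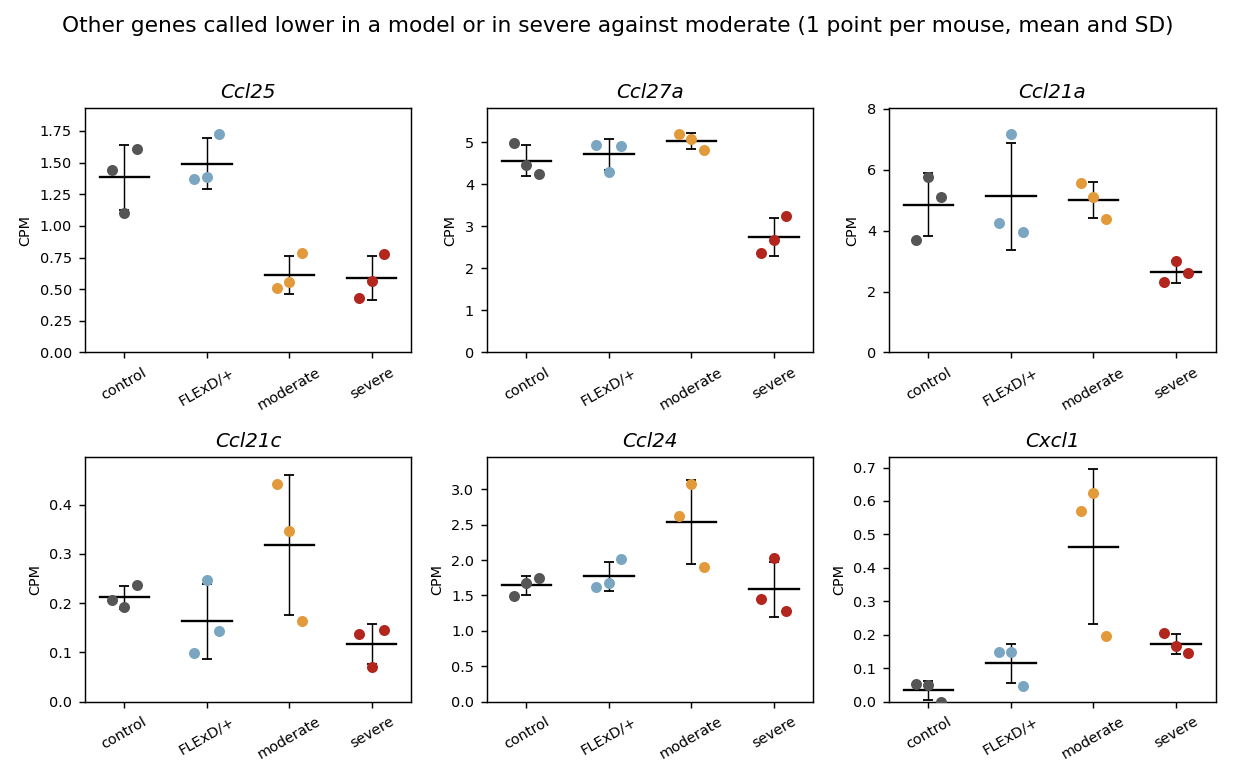
CPM of 6 further ligand genes that were called lower in a model than control or in severe than moderate muscle, per mouse (points) with group mean (line) and SD (bar), on axes that start at 0. Ccl27a and Ccl21a drop in severe muscle under TMM scaling but not with library size alone, Ccl25 is at most 0.787 CPM in both models, and Ccl24 and Cxcl1 are highest in moderate mice 1236 and 1308.

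Among the remaining CC ligands, Ccl22, which attracts CCR4-bearing T cells and is made by dendritic cells and macrophages, had 3 counts in control, 63 in moderate and 60 in severe libraries. Ccl22 passed the filter only through the models. Its ratio of normalised counts was 14.2 (95% interval 4.63 to 70.6) in moderate and 9.62 (95% interval 3.14 to 48.0) in severe muscle. Ccl17, the other CCR4 ligand, had 14, 10 and 3 counts in the moderate libraries and at most 3 in any other, and did not pass the filter. Ccl1, Ccl20, Ccl27b and Ccl28 were not tested either. Ccl26 and Cxcr1 had 0 counts in every library, which allows up to 3 counts, or 0.0235 CPM over the 3 severe libraries. The others that did not pass were Cxcl11, Cxcl17, Ccr4, Ccr6, Ccr8 and Cxcr5.

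Of the 18 receptor genes 13 were tested, and 9 rose in each model, beside 23% of all genes tested in moderate and 31.3% in severe muscle. None was called lower against control, beside 15.1% and 25.9% of all genes. The 9 include Ccr3, Ccr7 and Cxcr3, which passed the filter only through the models. Ccr2, the receptor of inflammatory monocytes, measured 6.02, 4.84 and 6.39 in control, 5.29, 5.43 and 5.12 in FLExD/+, 31.0, 24.1 and 33.7 in moderate and 39.4, 44.3 and 39.2 in severe. The 3 steps did not overlap. Ccr2 changed on the log2 scale by 2.36 ± 0.13 in moderate (adjusted p = 5.61e-09) and 2.83 ± 0.13 in severe muscle (adjusted p = 1.81e-10), and the difference of 0.47 ± 0.12 between the models (adjusted p = 0.00418) stayed under the fold threshold, but passed it without moderate mouse 1236 (0.50) or 1331 (0.59) or severe mouse 1047 (0.50) or 1079 (0.51). Reads were shared out between genes for Ccr2 in 11 of the libraries.

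Cx3cr1, the fractalkine receptor of patrolling monocytes and resident macrophages, measured 0.463, 0.240 and 0.284 in control, 0.636, 0.395 and 0.622 in FLExD/+, 5.25, 4.81 and 4.46 in moderate and 19.1, 16.7 and 15.9 in severe. It had the highest fold of the receptors. Cx3cr1 changed on the log2 scale by 3.87 ± 0.22 in moderate (adjusted p = 6.49e-09) and 5.71 ± 0.20 in severe muscle (adjusted p = 2.97e-11), or 14.7-fold and 52.2-fold, and severe exceeded moderate by 1.83 ± 0.14 (adjusted p = 5.29e-07). The TPM ratio of Cx3cr1 to Ccr2, a pair that marks the main monocyte classes in mice and does not depend on library scaling, was 0.0515 to 0.0793 in control, 0.0839 to 0.126 in FLExD/+, 0.128 to 0.188 in moderate and 0.351 to 0.447 in severe libraries. The ratio was higher in each step without overlap, and FLExD/+ also lay above control. Cx3cr1 held only 5.06 to 8.65 counts per library in control and 8.02 to 13.2 in FLExD/+, so that last difference rests on few reads. In all 12 libraries the count of Cx3cr1 was not whole, and its exons overlap those of Gm33858 on the opposite strand. Ccr1, the receptor for Ccl6 and Ccl9, measured 0.206, 0.383 and 0.663 in control, 0.245, 0.494 and 0.478 in FLExD/+, 4.65, 2.35 and 2.95 in moderate and 10.8, 10.0 and 7.30 in severe. The steps did not overlap, at 2.97 ± 0.37 in moderate (adjusted p = 1.27e-05), 4.46 ± 0.35 in severe muscle (adjusted p = 3.86e-08) and 1.49 ± 0.25 between them (adjusted p = 0.000252).

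Cxcr4, the signalling receptor of Cxcl12 on leukocytes and progenitors, measured 2.16, 1.49 and 2.37 in control, 3.04, 1.97 and 2.39 in FLExD/+, 6.93, 5.37 and 7.21 in moderate and 19.0, 16.9 and 18.4 in severe. Its log2 fold change was 1.70 ± 0.19 in moderate (adjusted p = 2.91e-06) and 3.17 ± 0.18 in severe muscle (adjusted p = 1.11e-09), and 1.47 ± 0.15 between them (adjusted p = 4.42e-06). The 3 steps did not overlap. Cxcr7 (Ackr3), which binds Cxcl12 and removes it, measured 12.4, 19.4 and 13.7 in control, 18.0, 18.1 and 13.6 in FLExD/+, 20.9, 24.8 and 18.6 in moderate and 10.8, 12.9 and 12.8 in severe. Moderate overlapped control and severe lay below moderate. Cxcr7 was higher in moderate muscle by 0.50 ± 0.17 (adjusted p = 0.0221), at the fold threshold, and missed it or the p threshold without control mouse 1127 (0.34), control mouse 1349 (0.40) or moderate mouse 1308 (0.38). This call was also lost, with a fold just under the threshold, with median-of-ratios factors (0.48), DESeq2, filterByExpr, counts not rounded and only the 2 groups in the fit. Cxcr7 was lower in severe than moderate muscle, at -0.82 ± 0.16 (adjusted p = 0.00103), a call lost with library size alone (-0.12) and with limma on TPM (-0.08). It was not called against control at -0.32 ± 0.17 (adjusted p = 0.11), a direction that turned to 0.97 with library size alone and 0.83 with limma on TPM. The TPM ratio of Cxcr4 to Cxcr7 was 0.111 to 0.247 in control, 0.146 to 0.230 in FLExD/+, 0.294 to 0.516 in moderate and 1.85 to 2.28 in severe libraries. The ratio of Cxcr4 to Cxcl12 itself went from 0.0904 to 0.143 in control to 1.21 to 1.59 in severe libraries, and these ratios, like that of Cx3cr1 to Ccr2, were chosen after their values were seen and carry no test.

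**Figure D4:**
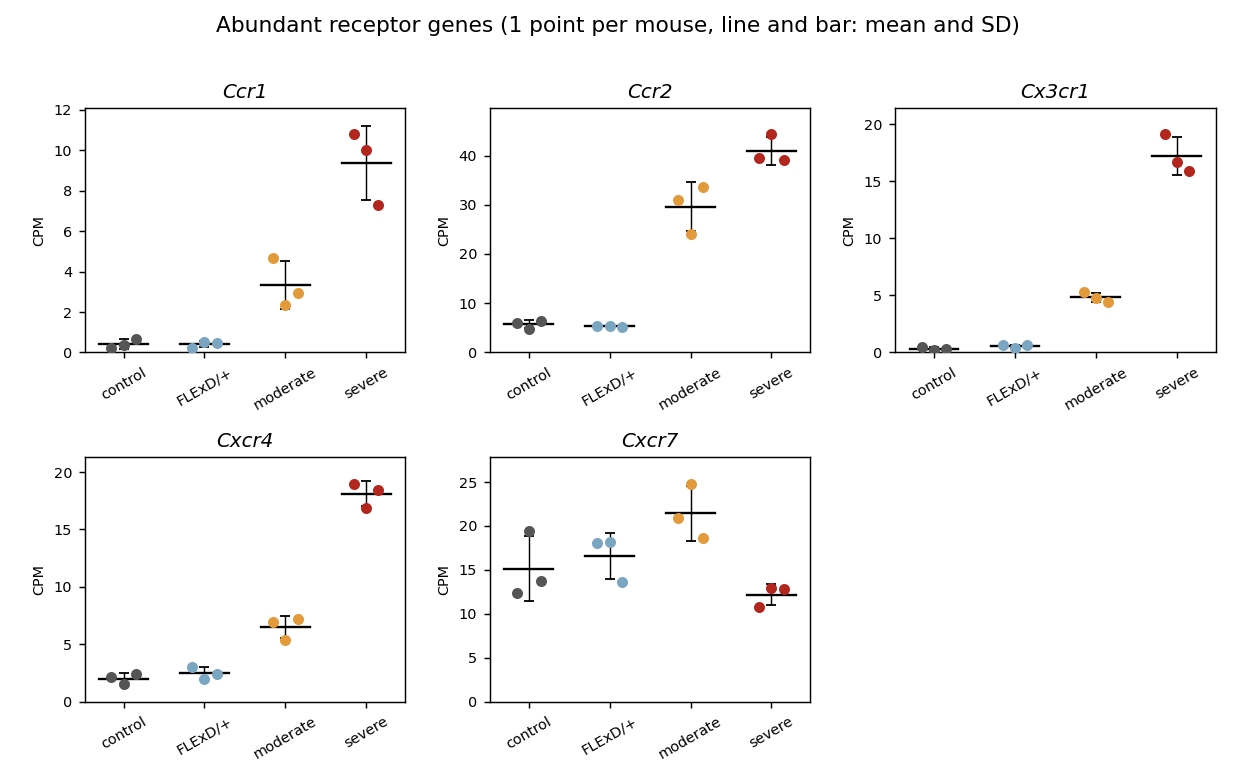
CPM of 5 abundant receptor genes, per mouse (points) with group mean (line) and SD (bar), on axes that start at 0. Ccr1, Cx3cr1 and Cxcr4 step up from control to moderate and again to severe without overlap, Ccr2 takes most of its rise in moderate muscle, and Cxcr7 is highest in moderate muscle.

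The less abundant receptors were spread over both outcomes, and Ccr3, Cxcr3 and Ccr7 are among the members that passed the filter only through the models. The log2 fold change of Ccr3, the eosinophil receptor, was 3.19 ± 0.63 in moderate and 2.84 ± 0.64 in severe muscle. For Cxcr3, carried by activated T cells, the values were 1.67 ± 0.51 in moderate and 2.18 ± 0.47 in severe muscle. The moderate call of Cxcr3 was lost without control mouse 1349 (adjusted p = 0.0689). Ccr7, carried by dendritic and T cells, had 3 counts in control, 30 in moderate and 46 in severe libraries, a ratio of normalised counts of 6.75 (95% interval 2.10 to 34.6) and 7.38 (95% interval 2.37 to 37.1), and its moderate call was lost without control mouse 1127 or 1246 or moderate mouse 1236 at adjusted p from 0.0575 to 0.0689. Cxcr2, the neutrophil receptor, measured 1.54, 1.49 and 1.47 in control, 0.979, 1.09 and 1.29 in FLExD/+, 1.39, 1.18 and 1.02 in moderate and 2.22, 2.08 and 2.33 in severe. Severe muscle was above all other groups. It rose there by 0.56 ± 0.19 (adjusted p = 0.0175, and 0.0541 without control mouse 1349), and exceeded moderate by 0.88 ± 0.19 (adjusted p = 0.00135). Ccr9 and Ccr10, the receptors of Ccl25 and Ccl27a, were not called in either model, although Ccr9 passed in moderate muscle without control mouse 1127 (0.80, adjusted p = 0.0462) and Ccr10 was lower in severe muscle without severe mouse 1079 (-1.38, adjusted p = 0.0352), a direction that turned to 0.28 with library size alone.

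**Figure D5:**
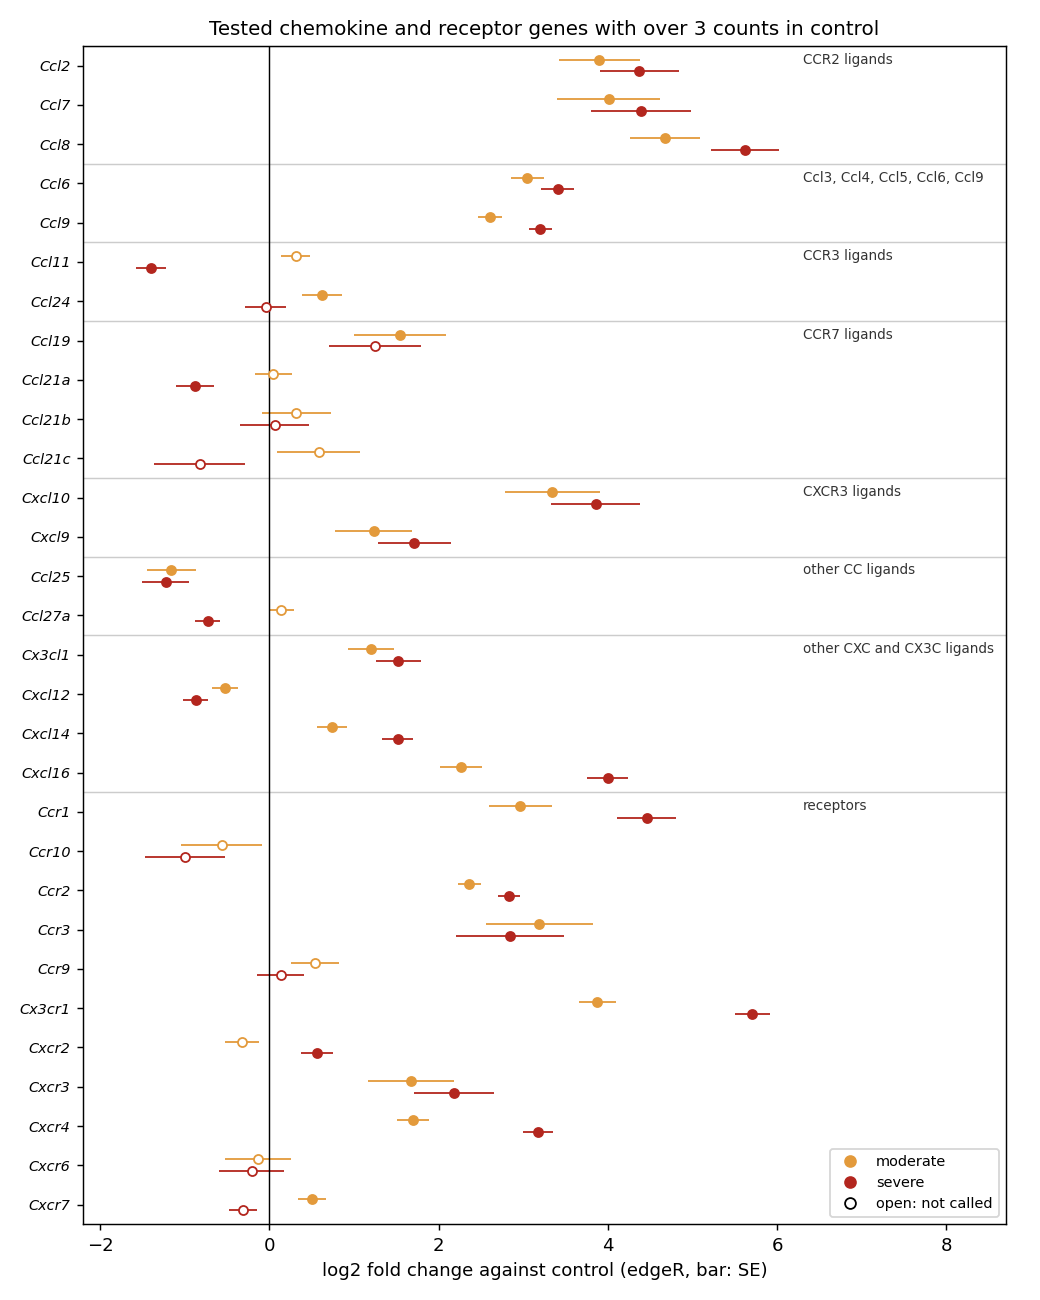
Log2 fold change against control, with SE, for tested genes that had over 3 counts in control, in moderate (orange) and severe muscle (red), by gene list, with open points for genes not called. Ccl2, Ccl7, Ccl8, Ccl6, Ccl9 and most receptors lie right of 0 in both models, Ccl25 and Cxcl12 lie left of 0 in both, and Ccl11, Ccl21a and Ccl27a lie left of 0 in severe muscle only. With library size alone, Cxcl12 lies right of 0 in both models and Ccl25, Ccl21a and Ccl27a in severe muscle.

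Between FLExD/+ and control muscle, neither of which combines Cre with the transgene, none of the 40 tested members was called by edgeR, DESeq2 or limma on TPM. At an unadjusted p under 0.05 in edgeR there was 1 of the 40, Cx3cl1, beside 715 of all 18502 genes tested. Its log2 fold change was -0.76 ± 0.34, with overlap. Cxcr2 was the 1 member of the 40 whose FLExD/+ and control mice did not overlap, at -0.42 ± 0.22, and was not called. The share of all genes without overlap was not counted.

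By chromosome the calls are given as counts, with no test of a difference. Over all genes 23% were higher and 15.1% lower in moderate, and 31.3% were higher and 25.9% lower in severe muscle. Ccl3, Ccl4, Ccl5, Ccl12 and Ccr7 on chromosome 11 and Ccr3 on chromosome 9 passed the filter only through the models. On chromosome 11, which holds the main CC ligand cluster, 13 of 14 members were tested, of which 10 were higher in moderate and 11 higher and 1 lower in severe muscle. On chromosome 4, with the Ccl21, Ccl19 and Ccl27 genes, 5 of 6 were tested, of which 1 was higher in moderate, and 0 were higher and 2 lower in severe muscle. Of the 10 receptor genes on chromosome 9, 7 were tested and 5 were higher in each model.

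Genes of the wider pathway were counted from lists, beside 23% of all genes higher in moderate muscle, 31.3% higher and 25.9% lower in severe muscle, and 16.2% higher in severe than moderate. Of 25 genes that signal below chemokine receptors, 21 were higher in moderate and 24 in severe muscle, and 22 were higher in severe than moderate. Among them, Rgs1, which shuts off chemokine receptor signalling, rose by 4.04 ± 0.44 and 5.63 ± 0.38, Vav1, which couples receptors to the cytoskeleton, by 2.64 ± 0.23 and 4.07 ± 0.22, and Dock2, needed for leukocyte migration, by 2.52 ± 0.16 and 3.46 ± 0.16. Of 17 cytokines, sensors and transcription factors that induce chemokine genes, 16 were tested, with 11 higher in moderate and 14 in severe muscle, including Tlr2, a sensor of microbial lipids and cell debris, by 1.63 ± 0.19 and 2.88 ± 0.18, and Irf8, a myeloid transcription factor, by 1.37 ± 0.19 and 2.46 ± 0.18. Ifng did not pass the filter. Of 8 atypical receptors and ligands with other names, 7 were tested, and in severe muscle 2 were higher (Pf4, a platelet and macrophage chemokine, by 3.11 ± 0.17, and Xcr1) and 2 lower (Ccrl2, a presenter of chemerin, at -1.96 ± 0.17, and Ackr2, a scavenger of CC ligands, at -1.19 ± 0.30).

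Marker lists of cell types that carry these genes were summed on the TMM scale. Their calls stand beside 23% of all genes higher and 15.1% lower in moderate muscle. In severe muscle 31.3% of all genes were higher and 25.9% lower. Of 8 macrophage and monocyte genes (Adgre1, Cd68, Csf1r, Lyz2, Ly6c2, Itgam, Mrc1 and Cd14), 7 were higher in moderate and 8 in severe muscle, and their summed level was 84.5 to 108 CPM in control, 420 to 521 CPM in moderate and 924 to 1005 CPM in severe libraries. Of 8 neutrophil genes 4 were tested, Ly6g was at 0 in every library, and the sum was 1.28 to 1.53 CPM in control and 8.78 to 10.6 CPM in severe libraries. Of 10 T and NK cell genes 6 were tested, 4 were higher and Cd3e was lower in severe muscle, and they summed to 0.515 to 0.947 CPM in control and 3.40 to 4.93 CPM in severe libraries, and the 6 dendritic cell genes to 12.9 to 13.6 and 32.8 to 36.5 CPM. Of these 6, 3 were higher and Siglech was lower in moderate muscle, and in severe muscle Flt3 and Itgax were higher and 4 were not called. B cell genes summed to 0.383 to 0.566 and 0.425 to 0.726 CPM, with none called. The 5 endothelial genes were all lower in severe muscle, with sums of 141 to 158 CPM in control and 63.4 to 74.4 CPM in severe libraries, whereas 3 of the 4 lymphatic genes were higher (Flt4 was lower) and summed to 16.4 to 21.6 and 54.1 to 57.9 CPM. The 5 genes of fibro-adipogenic progenitors, stromal cells of muscle, summed to 597 to 1016 CPM in control and 3285 to 3753 CPM in severe libraries, with Col3a1 and Pdgfra higher and Dcn lower. The part of these cell types in the chemokine results was not tested.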

How the data were processed

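Gastrocnemius RNA of 12 mice was poly(A)-selected and sequenced in single 50-base reads. Per the labels and the study's methods, the authors aligned reads to mm10 with Bowtie and quantified Ensembl 71 genes with RSEM 1.2.4, and TopHat2 2.0.8b is also named in the submitters' processing notes. The authors deposited 1 table of expected counts per gene and 1 of TPM, per gene and mouse. RSEM shares ambiguous reads between similar genes, and TPM can be above 0 where the expected count is 0. Every column matched a sample.

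Expected counts were rounded to whole numbers. Genes with at least 5 counts in at least 3 of the 12 columns (18502) were fitted once over 4 groups with edgeR 4.0.16 in R 4.3.3 (robust quasi-likelihood F test, TMM factors), and p-values were adjusted over all of them by the Benjamini-Hochberg method. The SE is the log2 fold change divided by the root of F. Calls needed an adjusted p below 0.05 together with a log2 fold change of 0.5 or more in size. CPM used TMM library sizes. Folds against 0 control counts were set against 3 counts over the group, and ratios against 1 to 3 counts carry exact 95% intervals for counting error. Fits were tested on simulated data.

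Alternatives were limma 3.58.1 on log2(TPM + 1), DESeq2 1.42.0, median-of-ratios factors, unscaled library sizes, other filters, no rounding, fits of the 2 groups compared, a log2 threshold of 1, and leaving out each mouse. Values per mouse are given for the 8 ligand and 6 receptor genes highest in the models (1 of these receptor genes is counted in the totals but not reported here), for genes called lower, and for some others added after their values were seen. The members and gene lists were chosen with earlier results of these data known. Replicates are separate mice.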

Additional observations from a re-analysis of the deposited data

How the results depend on the processing

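The 2 lower calls in moderate muscle became 0 with library size alone, 0 with limma on log2(TPM + 1), 1 without a filter on low counts and 1 at a log2 threshold of 1. The 5 lower calls in severe muscle became 0, 0 and 2 with library size alone, limma and the log2 threshold of 1. Between severe and moderate muscle, the 13 higher calls became 21 with library size alone and 22 with limma, and the 7 lower calls became 1, 1 and 3 with library size alone, limma and the log2 threshold of 1. With library size alone and limma in that order, the direction turned for Cxcl12 in moderate (0.0671 and 0.0818) and severe muscle (0.43 and 0.79), for Ccl21a (0.41 and 0.29), Ccl24 (1.24 and 0.88), Ccl27a (0.56 and 0.41) and Cxcr7 (0.97 and 0.83) in severe muscle, and for Ccl24 between the models (0.0225 and 0.0565). It also turned for Cxcr6 in severe muscle (1.07 and 0.45) and for Cxcl12 between the models (0.36 and 0.71), and with library size alone for Ccl25 in severe muscle (0.0531). Among other changes that were not called, the direction turned for Ccl21c and Ccr10 in severe muscle, for Cxcr6, Cxcr2 and Ccr10 in moderate muscle and for several members between the models. In severe muscle the median over all genes was 0.10 with TMM, 1.39 without these factors and 0.70 in the limma fit.

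Leaving out 1 mouse at a time gave 22 to 25 higher and 1 to 2 lower calls in moderate muscle, 24 to 26 higher and 5 to 6 lower in severe muscle, 10 to 15 higher and 4 to 7 lower between the models, and 0 to 0 in either direction between FLExD/+ and control. With DESeq2 the moderate calls of Ccl24 and Cxcr7, the severe call of Cxcl1 and the calls between the models of Cxcl1 and Ccl21c were lost. No paired analysis was possible because the mouse numbers differ between groups. At this depth members under about 0.15 CPM rest on 3 counts or fewer per library.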
